A study of Mus musculus with 52 samples.

Results

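Genes of cholesterol and fatty acid synthesis were followed through mouse stem cells treated with a totipotency medium and through the aggregates grown from such cells. The group held 33 of the 55291 genes in the deposited count table, taken by symbol: 18 enzymes from acetyl-CoA to cholesterol, 4 genes of sterol sensing and transport, 9 genes of fatty acid synthesis and modification, and the sterol exporters Abca1 and Abcg1. Poly(A) RNA was sequenced in 52 libraries of 25 groups, all labelled wild type, and each group had n = 2 libraries except the extended pluripotent stem cells (EPSCs), which had 4. All cells came from the line mc6-1/Mu-mClover3-10#, other than the mouse embryonic stem cells (mESCs) and treated mESCs, which came from the line 2i-0606-td-ES. The libraries form a pair of sets, told apart by how the table names its columns. In the first set of 12 libraries, EPSCs received the totipotency medium for 2 days (2-day S1 cells), or CHIR-99021 (CHIR, a GSK3 inhibitor) for 2 days with CD1530 (a retinoic acid receptor gamma agonist), with PD0325901 (a MEK inhibitor), with Elvitegravir (an HIV integrase inhibitor) or alone, and were set against EPSCs kept in LCDM medium (libraries 1 and 2). In the second set of 40 libraries, mESCs after 2 days in totipotency medium stood beside mESCs in 2i/L medium, and EPSCs after 25 or 38 passages in totipotency medium (P25, P38) stood beside EPSCs in LCDM medium (libraries 3 and 4). The second set also held aggregates of S1 cells after 1 day in a medium named 4C-64C (S2), S2 aggregates after another 1 day in it (S3), and aggregates cultured from day 1 of stage S4 for 3 days in a peri-implantation medium on Aggrewell plates (S5). At S2 and S3 further groups lacked 8Br-cAMP (a cyclic AMP analog), Birabresib (a BET bromodomain inhibitor), CHIR or CD1530, and at S5 further groups lacked Activin A, BMP4, FGF4 or XAV 939 (a tankyrase inhibitor). Stage S4 was not analysed here.

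Cholesterol is built from acetyl-CoA by way of mevalonate, squalene and lanosterol, and fatty acids are built from the same acetyl-CoA by Acly, Acaca and Fasn. When sterols in the endoplasmic reticulum run low, the transcription factors SREBP1 and SREBP2, made from Srebf1 and Srebf2, are released from their membrane anchors and switch on the enzymes of both pathways, while INSIG1 holds them back when sterols are plentiful. Oxysterols act in the other direction through the LXR receptors, which switch on Abca1 and Abcg1 to export sterol and can also switch on Srebf1. Mammalian SREBPs bind sterol regulatory elements and certain E-boxes, usually beside CCAAT boxes bound by NF-Y.

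Promoters of 25 of the 33 genes were in the RefSeq promoter table used here (build GRCm38.p6, 250 bases before to 50 after the start of each gene), and 3 are shown because their genes stand for synthesis, feedback and export in the results that follow. Hmgcs1 encodes cytosolic HMG-CoA synthase (chr13:119690101-119690400, plus strand), Insig1 the sterol-sensing anchor (chr5:28071162-28071461, plus strand) and Abca1 a sterol exporter (chr4:53159846-53160145, minus strand). Capitals mark matches to the motifs searched on both strands.
Hmgcs1: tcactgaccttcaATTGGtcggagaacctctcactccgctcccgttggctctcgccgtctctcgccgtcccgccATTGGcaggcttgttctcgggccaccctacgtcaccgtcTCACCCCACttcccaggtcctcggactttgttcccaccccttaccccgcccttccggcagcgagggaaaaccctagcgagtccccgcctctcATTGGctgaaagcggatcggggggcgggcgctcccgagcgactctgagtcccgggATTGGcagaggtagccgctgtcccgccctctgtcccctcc
Insig1: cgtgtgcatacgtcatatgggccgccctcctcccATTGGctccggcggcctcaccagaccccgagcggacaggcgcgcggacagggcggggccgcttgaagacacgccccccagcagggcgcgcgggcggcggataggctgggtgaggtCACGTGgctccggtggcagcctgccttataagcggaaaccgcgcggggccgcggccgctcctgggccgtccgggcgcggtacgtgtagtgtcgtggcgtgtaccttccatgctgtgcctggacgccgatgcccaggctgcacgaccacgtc
Abca1: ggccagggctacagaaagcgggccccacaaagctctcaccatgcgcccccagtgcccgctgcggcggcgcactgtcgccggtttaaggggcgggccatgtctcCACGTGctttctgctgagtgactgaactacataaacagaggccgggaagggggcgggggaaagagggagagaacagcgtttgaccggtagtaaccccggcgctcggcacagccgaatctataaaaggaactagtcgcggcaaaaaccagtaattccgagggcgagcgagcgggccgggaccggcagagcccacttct
The capitals in Hmgcs1 are a form of the sterol regulatory element, TCACNCCAC, 137 bases before the start, and CCAAT boxes (ATTGG on the strand shown) at 237, 176 and 45 bases before and 10 bases after the start. Those in Insig1 are a CCAAT box (again ATTGG) at 216 and an E-box, CACGTG, at 101 bases before the start, and the capitals in Abca1 are an E-box 147 bases before it. Over the 25 genes, CCAAT matched in 19 (76%), against 41.1% of the 27025 genes in the table. CACGTG matched in 5 (20%: Abca1, Dhcr7, Hsd17b7, Insig1 and Sc5d), against 8.09% of all genes. TCACNCCAC matched in Hmgcs1 alone (4%), against 1.44% of all genes. An exact LXR-type repeat, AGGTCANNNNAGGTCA, matched in 0 of the 25 and in only 4 of all genes (0.0148%). It is thus too rare for the 0 to say whether these promoters hold an LXR element. Looser forms of the repeat were not searched. A CCAAT match and a TCACNCCAC match can share letters, and a match describes these letters only.

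Levels below are CPM, the counts of a gene divided by the TMM-scaled total of its library, given for both libraries of a group. Differences are log2 fold changes with their standard error (SE) from edgeR's quasi-likelihood test, fitted to all 52 libraries and to the 25056 genes with enough counts. A gene is said to rise or fall where its Benjamini-Hochberg adjusted p over all tested genes was below 0.05 and its change was at least 1.5-fold. Nothing in the labels shows that both libraries of a group are separate cultures, so the p-values measure only spread between libraries, which may be technical. That spread was estimated over all groups of the model together. The SE and p-value of a comparison therefore do not show how far apart its own libraries lay, for which the CPM of both libraries are given. Total counts per library ran from 16643188 to 108304781. In 46 libraries the mates of a read pair seem to have been counted separately and in 6 (EPSC libraries 3 and 4, P25 and P38) once, so S2 against P25 and mESCs against EPSCs cross that change and its part in those results cannot be told apart. The same holds for levels, ranges and correlations taken over the groups of the second set. Mvd, mevalonate diphosphate decarboxylase, was listed at 0 in all 12 libraries of the first set, as were 3756 of the tested genes, and is left out there, which leaves 32 members. Those 3756 genes stay in the shares and medians of all tested genes given for first-set comparisons, though none could be called there. The first-set shares are therefore too low when set beside the 32 members. Fdps had only 2.02 to 5.75 CPM on average over the second set, and shares 26.7% of its exon sequence positions with a neighbouring gene on its strand, so its values are uncertain. The same holds to a lesser degree for Tm7sf2 (12.1% shared), whose largest overlap is also with a gene on its strand. For Fdft1 (18.3%), Hmgcs1 (12.1%) and Idi1 (9.22%) the largest overlap is with a gene on the other strand. Their values are uncertain too, since no source used here gives the strand setting of the counting.

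**Figure D1:**
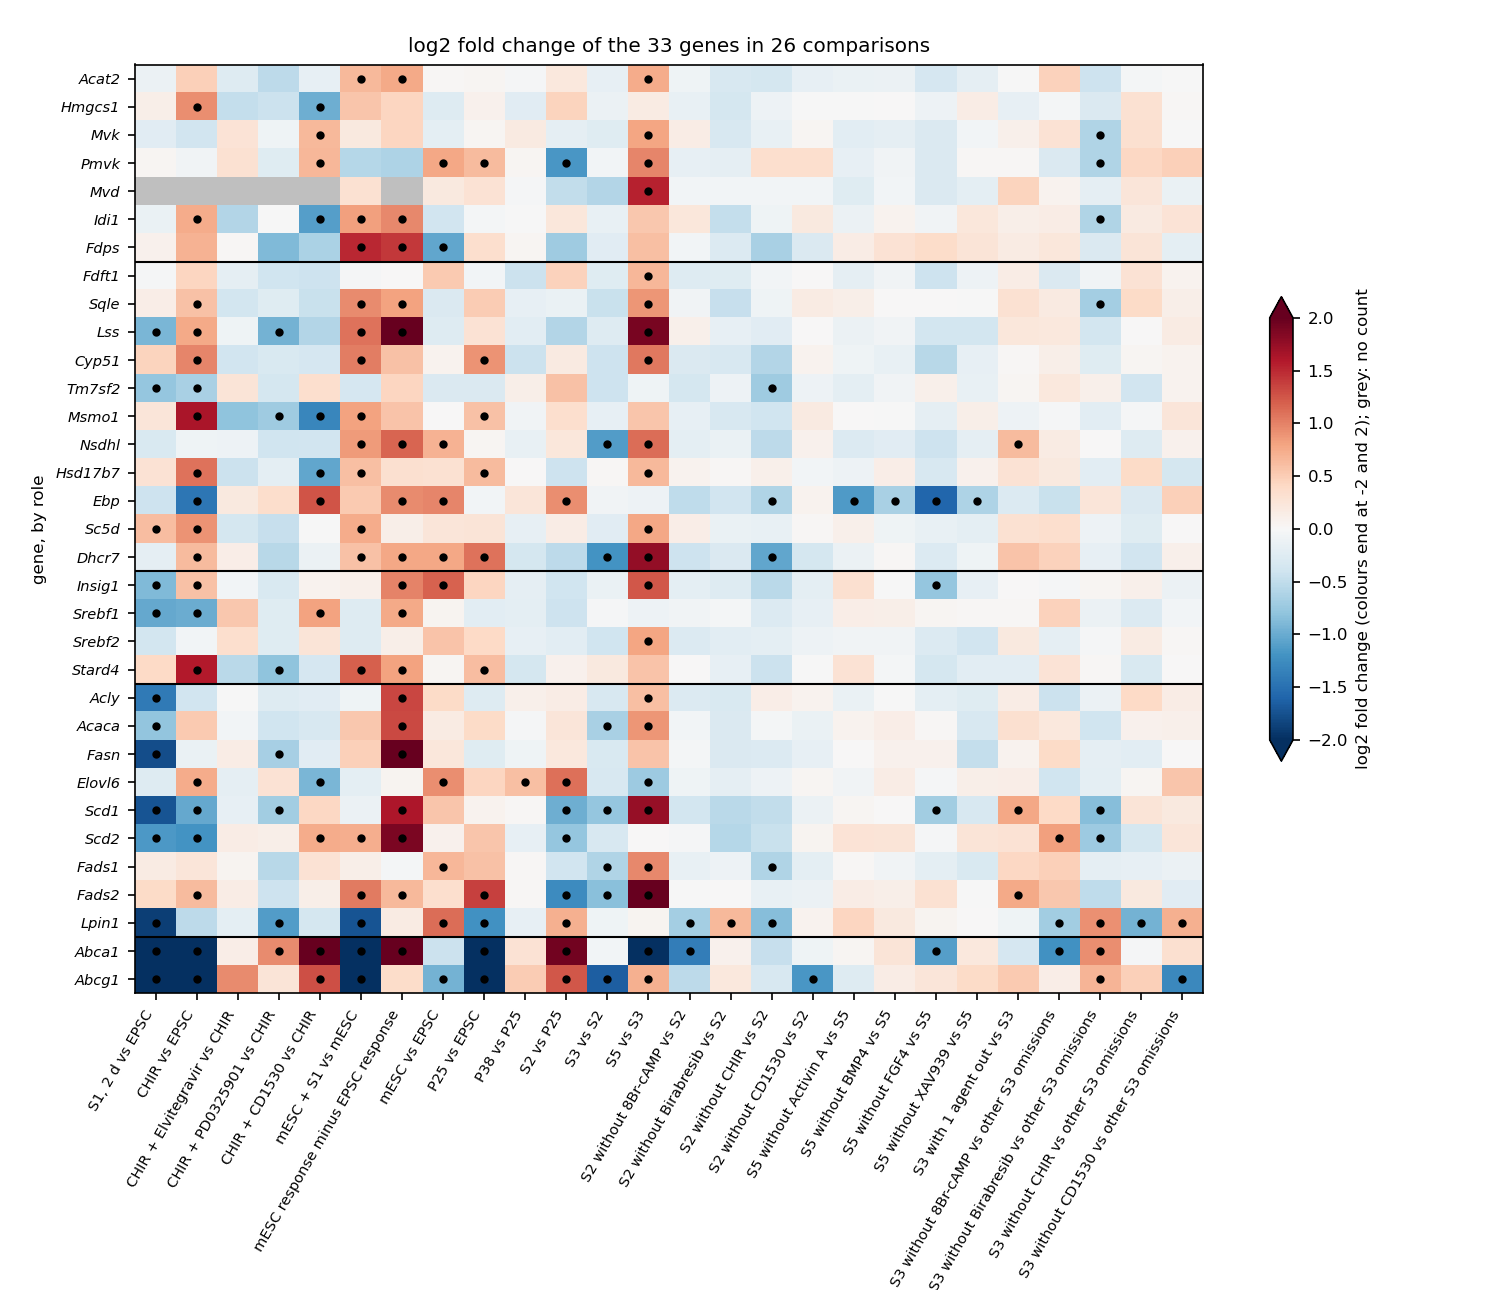
Each row is a gene, ordered by role, and each column a comparison, with the log2 fold change in colour (red higher, blue lower in the group named before "vs"; colours end at -2 and 2) and a dot where the gene rose or fell by edgeR's test. The CHIR, treated mESC and S5 columns hold the most dots in the enzyme rows, and Abca1 in the bottom rows is blue with a dot in the CHIR, treated mESC and S5 columns.

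Levels of the members were far apart. Per kilobase of exon, over the 20 groups of the second set, the median level was highest for Scd2 (269 CPM per kb), a stearoyl-CoA desaturase, followed by Acly (112), Fasn (82.6), Srebf2 (63.4) and Hmgcs1 (62.4), and lowest for Fdps (0.824) and Abcg1 (1.16). Over the same 20 groups, the means of Abca1 differed 26.7-fold between the highest group (EPSCs, 119 CPM) and the lowest (S5 without FGF4, 4.46 CPM), the widest range of all members. Abcg1 followed at 17.4-fold, and then the phosphatidate phosphatase Lpin1 at 5.66-fold and the sterol dehydrogenase Nsdhl at 5.31-fold. Srebf2 had the narrowest range in the second set, 1.72-fold, and Tm7sf2, Srebf1, Hmgcs1 and Acly stayed within 1.97-fold there. In the first set the group means ran from 1.96 to 211 CPM for Abca1, from 253 to 678 for Acly and from 67.8 to 159 for Srebf1.

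The exporter Abca1 had the widest changes. Abca1 (chr 4, 53030787 to 53159895) had 9.09 and 10.2 CPM in 2-day S1 cells, 15.4 and 11.8 with CHIR and CD1530, 3.60 and 3.68 with CHIR and PD0325901, 2.11 and 2.00 with CHIR and Elvitegravir, 1.43 and 2.50 with CHIR alone and 216 and 206 in the EPSCs of the first set. Every treated library lay far below both EPSC libraries, and those with CHIR alone or with Elvitegravir lay lowest. Abca1 fell in 2-day S1 cells (-4.45, SE 0.21, adjusted p = 6.6e-20) and with CHIR (-6.80, SE 0.25, adjusted p = 2.2e-22), and with CD1530 on top of CHIR it rose (2.85, SE 0.24, adjusted p = 3.5e-12). The rise with PD0325901 on top of CHIR (0.95, SE 0.26) was between low levels and was not called without CHIR library 1 (0.56) or without PD0325901 library 1 (0.97). In the second set Abca1 had 16.6 and 18.1 CPM in treated mESCs and 84.5 and 92.1 in mESCs, a fall of smaller size (-2.35, SE 0.19). P25 cells had 23.8 and 23.9 CPM and P38 cells 33.8 and 24.5, against 113 and 125 in EPSCs, and the P25 fall was also called (-2.32, SE 0.20). S2 aggregates had 85.7 and 95.4 CPM, S3 aggregates 84.9 and 89.6 and S5 aggregates 11.8 and 7.46. Abca1 thus rose at S2 against P25 (1.92, SE 0.20), did not pass the test at S3 against S2 (-0.05) and fell at S5 against S3 (-3.18, SE 0.20). In these bulk samples, fewer cells of a type and less RNA per cell cannot be told apart.

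Abcg1, the partner exporter (chr 17, 31057675 to 31117988), had 7.47 and 9.63 CPM in 2-day S1 cells and 3.73 and 3.31 with CHIR, against 49.9 and 49.1 in EPSCs, and fell in both (-2.54, SE 0.17 and -3.81, SE 0.19). These comparisons share the EPSC libraries. Treated mESCs had 7.24 and 6.28 CPM and mESCs 29.5 and 31.0 CPM (-2.16, SE 0.17), and P25 had 5.94 and 6.14 against 60.7 and 56.4 in EPSCs (-3.28, SE 0.19). Both exporters therefore fell in each of the 4 comparisons of cells in totipotency medium or CHIR with their starting cells. In the aggregate stages Abcg1 had 15.0 and 13.6 CPM at S2, 4.71 and 4.42 at S3 and 8.86 and 6.11 at S5. It rose at S2 against P25 (1.24, SE 0.19), fell at S3 against S2 (-1.65, SE 0.18) and rose at S5 against S3 (0.71, SE 0.18), the last not called without S5 library 1 (0.42). The LXR genes themselves did not share 1 direction in 2-day S1 cells, where Nr1h2 fell (-1.47, SE 0.19) and, from few counts, Nr1h3 rose (1.76, SE 0.43), as did the low-level exporter gene Abcg4 (2.34, SE 0.33). The extraembryonic endoderm markers moved with some of these changes: their summed level was 3103 to 4155 CPM at S5 against 469 to 480.3 at S3, where Abca1 fell, but 4767 to 4773 with CD1530 against 464 to 566 with CHIR alone, where Abca1 rose. Their part in the result was not tested.

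**Figure D2:**
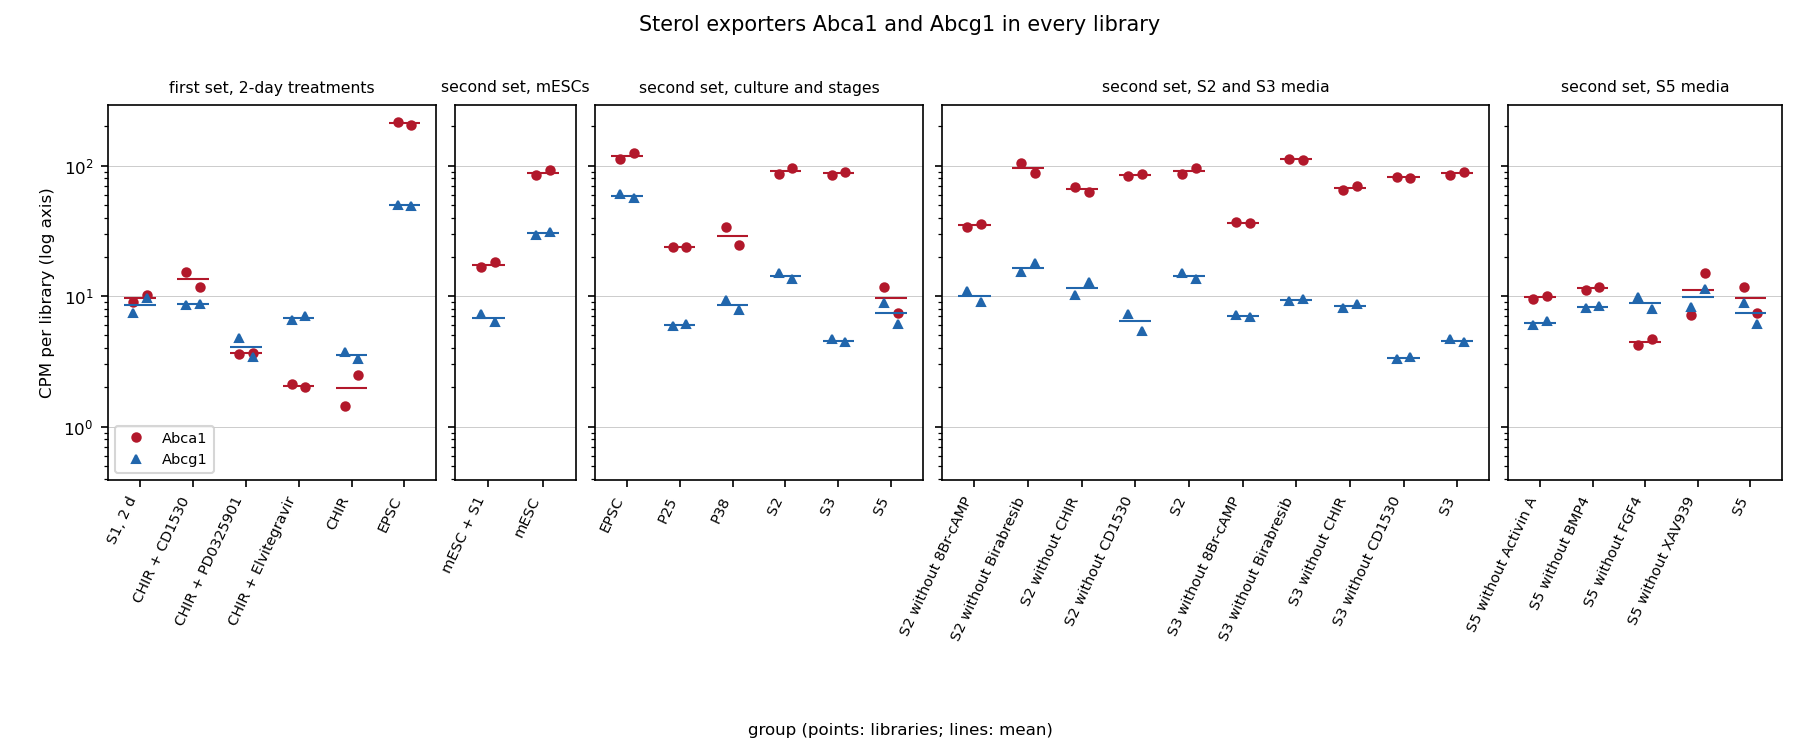
CPM of Abca1 (circles) and Abcg1 (triangles) in every library on a log axis, with lines for group means, in panels for the 2-day treatments, mESCs, culture and stages, S2 and S3 media, and S5 media. In the first panel both EPSC libraries lie above 200 CPM for Abca1 and every treated library below 16, and in the S5 media panel Abca1 lies at or below 15.1 CPM in every library.

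In EPSCs after 2 days in totipotency medium most fatty acid genes fell, while most sterol enzymes did not pass the test. Of the 32 members measured, 1 rose and 12 fell, against 23% and 15.8% of all tested genes. Of the 9 fatty acid genes 6 fell, with a median log2 fold change of -1.15 beside 0 for all genes. The median of the 17 sterol enzymes was -0.03. Fasn, fatty acid synthase (chr 11, 120805846 to 120824547), had 256 and 270.0 CPM in 2-day S1 cells and 894 and 898 in EPSCs, without overlap (-1.77, SE 0.14, adjusted p = 2.2e-13). Acly, which makes cytosolic acetyl-CoA from citrate, had 257 and 249 CPM in S1 cells and 695 and 661 in EPSCs (-1.42, SE 0.08). Scd1, the desaturase that makes oleate, had 131 and 149 CPM in S1 cells against 449 and 482 in EPSCs (-1.73, SE 0.10). All 3 genes were far lower in both S1 libraries than in both EPSC libraries. Lpin1 (-1.88, SE 0.12), Scd2 (-1.15, SE 0.10) and the carboxylase gene Acaca (-0.79, SE 0.14) also fell. The elongase gene Elovl6 (-0.26) and the polyunsaturated fatty acid desaturase genes Fads1 (0.17) and Fads2 (0.39) were not called.

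Among the regulators in 2-day S1 cells, Srebf1 had 79.3 and 77.4 CPM against 159 and 159 in EPSCs and fell (-1.02, SE 0.13, adjusted p = 8.5e-09), and Insig1 had 65.2 and 61.0 CPM against 113 and 119 and fell (-0.88, SE 0.09). Srebf2 (-0.37) was not called. Along the sterol chain, none of the 6 mevalonate genes measured was called by edgeR, with 0 at an unadjusted p below 0.05 and changes of -0.23 to 0.12. Lanosterol synthase, Lss, had 18.7 and 18.3 CPM in S1 cells and 37.2 and 32.6 in EPSCs and fell (-0.91, SE 0.10), as did the sterol reductase gene Tm7sf2 (-0.77, SE 0.12). The desaturase gene Sc5d rose (0.62, SE 0.09), a call lost without S1 library 1 (0.58). The summed level of the pluripotency markers was 165 to 167 CPM in S1 cells and 1605 to 1632 in EPSCs, and that of the trophectoderm markers 882 to 1178 and 15.0 to 16.2 CPM. Every marker had counts in every group, and the part of these changes in the lipid gene results was not tested.

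With CHIR alone, more sterol enzymes rose than fell and both exporters fell. By the published recipe LCDM medium already contains CHIR, and no source used here gives the base medium of the CHIR groups, so this comparison is between the media as labelled. 13 members rose and 7 fell, against 15.9% and 12.4% of all tested genes. Of the 17 sterol enzymes measured 9 rose and 2 fell, with a median of 0.64, beside 0 for all genes. Msmo1, which oxidises methyl groups of lanosterol products, had 160.2 and 299.7 CPM with CHIR and 76.4 and 71.5 in EPSCs (1.64, SE 0.16, adjusted p = 6.3e-11). Hmgcs1, whose promoter with the sterol regulatory element form is shown above, had 281 and 385 CPM with CHIR and 176 and 175 in EPSCs (0.92, SE 0.10). The CHIR libraries lay far apart, but each was above both EPSC libraries for both genes. Cyp51, the lanosterol demethylase (0.98, SE 0.08), Hsd17b7, a sterol ketone reductase (1.08, SE 0.15), Sc5d (0.91, SE 0.09) and Lss (0.76, SE 0.10) rose, and so did Stard4, a carrier of sterol between membranes (1.58, SE 0.12). Pluripotency markers summed to 141 to 179.7 CPM with CHIR and 1605 to 1632 in EPSCs, endoderm markers to 464 to 566 with CHIR and 147 to 152 in EPSCs, trophectoderm markers to 60.3 to 78.3 with CHIR and 15.0 to 16.2 in EPSCs, and feeder fibroblast markers to 28.1 to 37.6 with CHIR and 148 to 163 in EPSCs. Their part was not tested.

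Other rises with CHIR depended on a library. Without CHIR library 1, the calls of Dhcr7, the reductase that ends the chain (0.64, SE 0.10, then 0.42), Insig1 (0.59, SE 0.09, then 0.55) and Fads2 (0.64, SE 0.11, then 0.34) were lost. Without CHIR library 2, those of the isomerase gene Idi1 (0.75, SE 0.15, then 0.31), Elovl6 (0.74, SE 0.10, then 0.55), Tm7sf2, which fell (-0.64, SE 0.12, then -0.49), and the squalene epoxidase gene Sqle (0.59, SE 0.09, then 0.44) were lost. Without EPSC library 1, those of Sqle (0.55), Insig1 (0.53) and Fads2 (0.55) were lost too. With the replicate number as a block, Sqle was not called (0.58). The sterol isomerase gene Ebp, like Tm7sf2, went against most of the other sterol enzymes: it had 13.9 and 9.49 CPM with CHIR against 33.3 and 31.3 in EPSCs and fell (-1.45, SE 0.16, adjusted p = 1.7e-09). Srebf1 (-0.99, SE 0.13), Scd1 (-1.03, SE 0.10) and Scd2 (-1.20, SE 0.10) fell as well, while Fasn (-0.14) and Acly (-0.38) were not called.

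The compounds added to CHIR share the CHIR libraries as their reference, so each is given by its own values. With CD1530 12 members were called, 7 higher and 5 lower, against 15% and 12.5% of all genes. Msmo1 had 91.9 and 94.5 CPM with CD1530 against 160.2 and 299.7 with CHIR alone (-1.30, SE 0.16, adjusted p = 9.6e-09), and Idi1 (-1.10, SE 0.15), Hsd17b7 (-1.04, SE 0.15), Hmgcs1 (-0.97, SE 0.10) and Elovl6 (-0.92, SE 0.10) fell with it. Ebp had 29.2 and 27.2 CPM with CD1530 against 13.9 and 9.49 with CHIR alone and rose (1.25, SE 0.16). In each of these 6 genes the CD1530 libraries lay close together and outside the span of the CHIR libraries. Scd2 (0.74, SE 0.10) and Abcg1 (1.29, SE 0.18) rose. The rises of Srebf1 (0.81, SE 0.13), mevalonate kinase Mvk (0.64, SE 0.14) and phosphomevalonate kinase Pmvk (0.66, SE 0.21) were not called without CHIR library 2 (0.51, 0.37 and 0.31), and without CHIR library 1 the Pmvk value was 1.28. The endoderm markers, given above, and the trophectoderm markers, at 547 to 551 CPM with CD1530 and 60.3 to 78.3 with CHIR alone, moved with these results, and their part was not tested.

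PD0325901 on top of CHIR mainly gave lower levels: 1 member rose and 6 fell, against 4.64% and 2.7% of all genes, and the median of the members was -0.37, beside 0 for all genes. Lpin1 had 22.4 and 22.1 CPM with PD0325901 against 47.6 and 49.4 with CHIR alone (-1.12, SE 0.12, adjusted p = 1.3e-08), and Lss had 31.4 and 29.5 CPM with PD0325901 against 62.4 and 55.7 with CHIR alone (-0.95, SE 0.10). Neither pair overlapped. Stard4 (-0.81, SE 0.11), Msmo1 (-0.71, SE 0.15) and Scd1 (-0.69, SE 0.10) fell, but not without CHIR library 2 (-0.52, -0.19 and -0.53). Msmo1 was also not called without PD0325901 library 1 (-0.44), and the fall of Fasn (-0.66, SE 0.14) was not called without CHIR library 1 (-0.44). Without PD0325901 library 1, 11 members were called, all lower, and 9.22% of all genes. With Elvitegravir edgeR called 0 of the 32 members, while of all genes 0.00798% rose and 0.00399% fell. DESeq2 called 3 members and 3.67% of the genes it tested. In edgeR's test 13 members and 18.1% of all genes had an unadjusted p below 0.05. Without CHIR library 1, 10 members and 14.8% of all genes were called, and with the replicate number as a block 3 members and 2.1% of all genes. The pluripotency markers summed to 312 to 406 CPM with PD0325901, 149 to 151 with CD1530, 203 to 205 with Elvitegravir and 141 to 179.7 with CHIR alone, and their part was not tested.

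**Figure D3:**
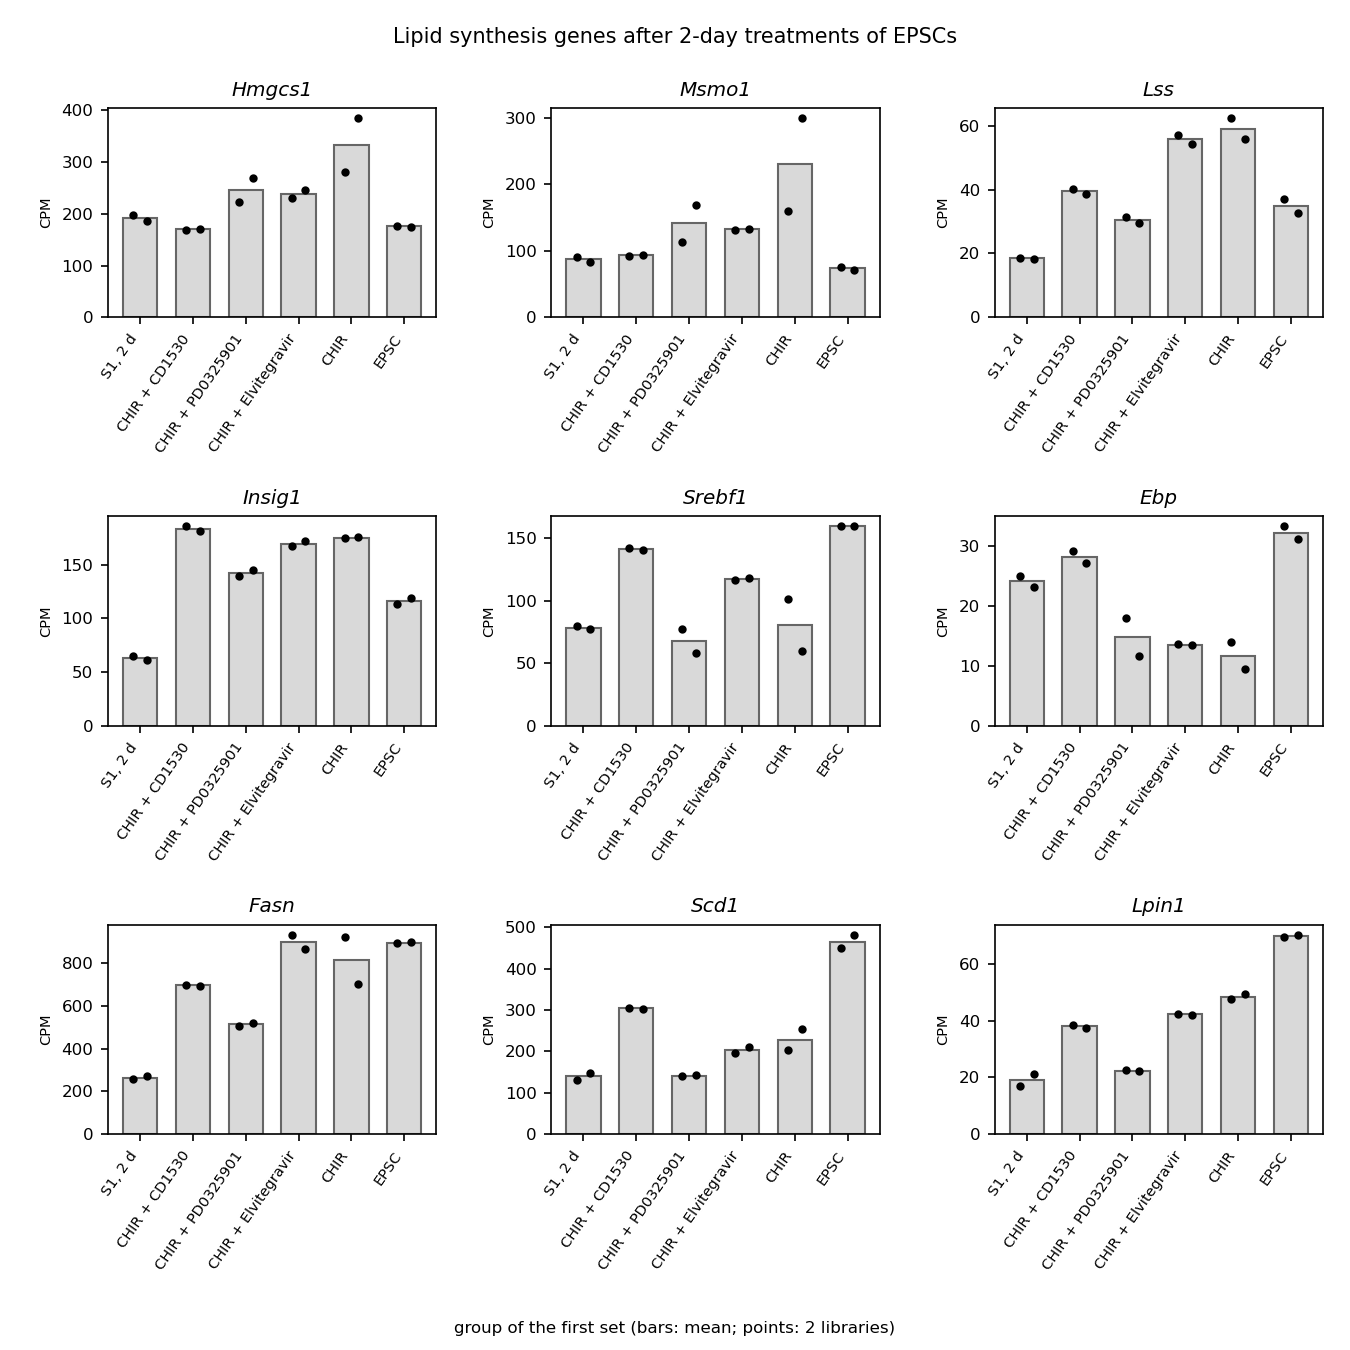
CPM of 9 genes in the first set, with bars for the mean of each group, points for its 2 libraries, and groups from 2-day S1 cells on the left to EPSCs on the right. Fasn, Scd1 and Lpin1 are lowest in S1 cells, Msmo1 and Hmgcs1 are highest with CHIR, whose 2 points lie apart, and Ebp is lowest with CHIR.

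In mESCs after 2 days in the same medium many sterol enzymes rose and none fell. 14 of the 33 members rose and 3 fell in treated mESCs, against 18.5% and 13.2% of all genes. Of the 18 sterol enzymes 11 rose and 0 fell, with a median of 0.63 beside 0.04 for all genes. Lss had 171 and 169 CPM in treated mESCs and 79.9 and 79.6 in mESCs (1.09, SE 0.09, adjusted p = 4.4e-12). Cyp51 had 204 and 203 CPM in treated mESCs against 96.2 and 104 in mESCs (1.02, SE 0.08), and Sqle had 222 and 226 in treated mESCs against 124 and 110.4 in mESCs (0.94, SE 0.09). In all 3 genes both treated libraries lay well above both mESC libraries. Nsdhl (0.85, SE 0.10), Idi1 (0.82, SE 0.15), Msmo1 (0.80, SE 0.15), Sc5d (0.74, SE 0.09), the acetyltransferase gene Acat2 (0.65, SE 0.08) and, from few counts, Fdps (6.05 and 5.45 CPM in treated mESCs, 1.87 and 2.18 in mESCs) rose. Hsd17b7 (0.61, SE 0.15) and Dhcr7 (0.59, SE 0.10) rose just past the 1.5-fold limit. Neither was called with DESeq2 (0.58 and 0.57) or with RLE scaling (0.58 and 0.57), and Dhcr7 was not called without mESC library 1 (0.58) or treated mESC library 1 (0.57). Stard4 rose to 143 and 141 CPM in treated mESCs, against 60.2 and 63.4 in mESCs (1.20, SE 0.12). Among the fatty acid genes Fads2 (1.03, SE 0.11) and Scd2 (0.73, SE 0.10) rose, and Lpin1, with 47.8 and 46.4 CPM in treated mESCs against 157 and 154 in mESCs, fell (-1.72, SE 0.12). Insig1 (0.11), Srebf1 (-0.26) and Srebf2 (-0.26) were not called. The feeder fibroblast markers summed to 923 to 931 CPM in treated mESCs and 2022 to 2119 in mESCs, and their part was not tested.

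The difference between both responses was tested as a contrast, the mESC response minus the EPSC response. 18 of 32 members had a higher response in mESCs and 0 a lower one, against 14.3% and 13.2% of all genes. The median difference was 0.76 over the members and -0.04 over all genes. Fasn had 1599 and 1585 CPM in treated mESCs and 1148 and 1143 in mESCs, where it was not called (0.47, SE 0.14), while it fell in EPSCs as given above, and the responses differed (2.24, SE 0.20, adjusted p = 9.5e-12). Lss, up in mESCs and down in EPSCs, differed by 2.00, SE 0.14, adjusted p = 1.2e-14. Scd2 also had opposite directions (1.88, SE 0.14), with 3112 and 3081 CPM in treated mESCs against 1870.3 and 1859 in mESCs, and 836 and 1038 in 2-day S1 cells against 2076 and 2086 in EPSCs. Of the 9 fatty acid genes 6 differed and of the 17 sterol enzymes 8, all in the same direction. Lpin1 (0.16) and Abcg1 (0.37), which fell in both, were not called different. The responses were measured in different cell lines and in different sets of libraries, so cell type, line and set cannot be told apart. Pluripotency and trophectoderm markers moved far less in mESCs. Pluripotency markers summed to 1429.1 to 1429.2 CPM in treated and 2131 to 2152 in untreated mESCs. In 2-day S1 cells they summed to 165 to 167 CPM, against 1605 to 1632 in EPSCs. Trophectoderm markers summed to 51.2 to 52.0 CPM in treated and 15.2 to 16.1 in untreated mESCs. They summed to 882 to 1178 CPM in 2-day S1 cells and 15.0 to 16.2 in EPSCs. The part of both was not tested.

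**Figure D4:**
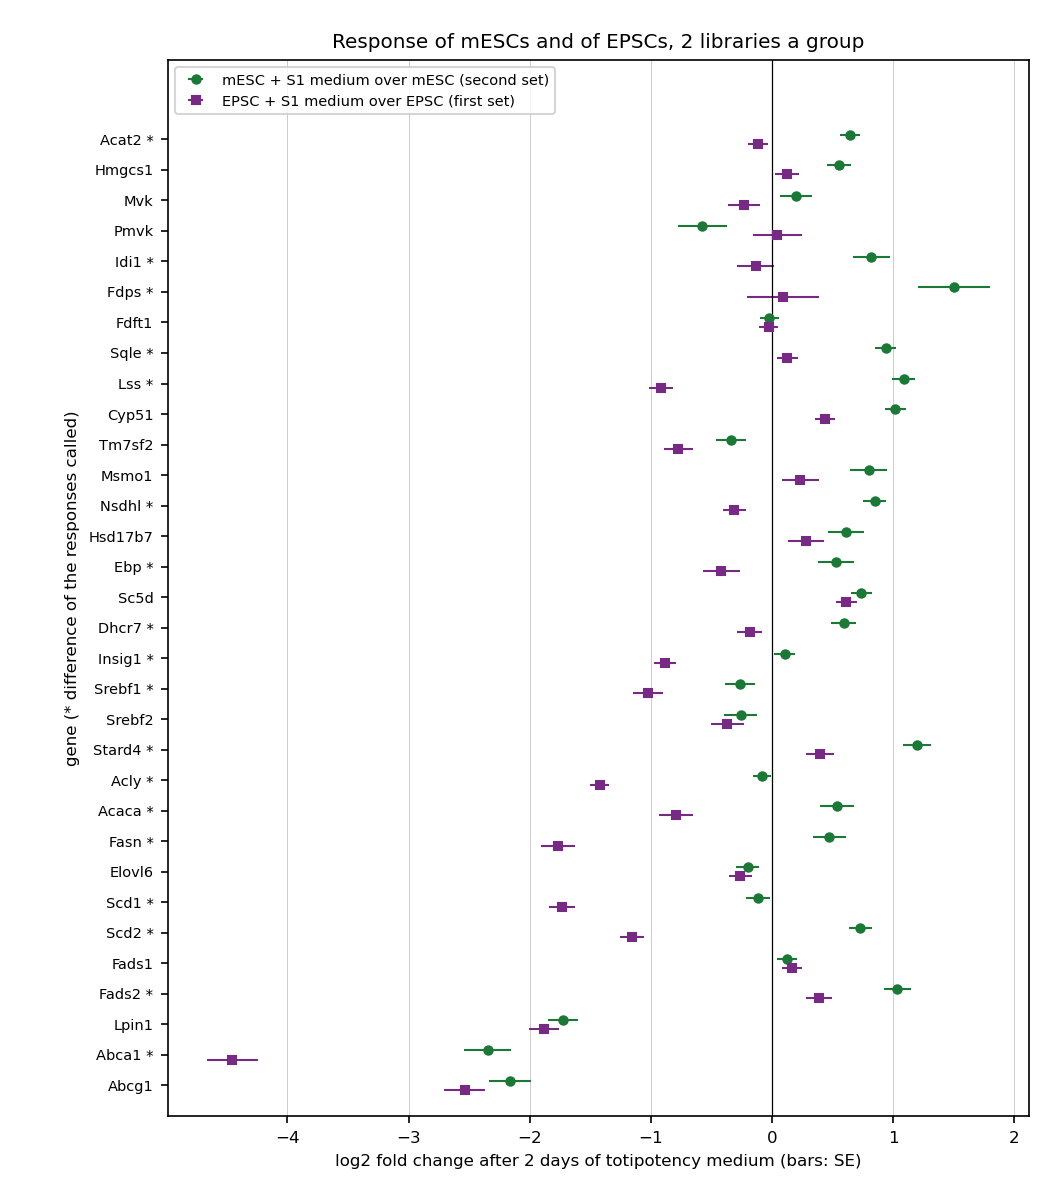
Log2 fold change with its SE of each member after 2 days of totipotency medium, in mESCs (circles) and EPSCs (squares), with a star where the difference between the responses was called. The circles of most enzymes lie right of 0, the squares of Fasn, Acly, Scd1 and Scd2 lie below -1, and the Lpin1 points lie together at -1.72 in mESCs and -1.88 in EPSCs.

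The starting cells themselves differed in single members. In mESCs 8 members were higher and 2 lower than in the EPSCs of the second set, against 14.3% and 14.5% of all genes. Both directions together, the calls were near the share of all genes, and the genes below are given as single values. Insig1 had 329 and 301 CPM in mESCs and 136 and 142 in EPSCs (1.18, SE 0.09, adjusted p = 1.9e-13), Lpin1 had 157 and 154 in mESCs and 70.6 and 73.6 in EPSCs (1.11, SE 0.12), and Ebp had 70.6 and 67.2 in mESCs and 35.5 and 34.5 in EPSCs (0.98, SE 0.16). In each gene both mESC libraries lay well above both EPSC libraries. Elovl6 (0.93, SE 0.10), Pmvk (0.77, SE 0.21), Dhcr7 (0.77, SE 0.10), Nsdhl (0.70, SE 0.10) and Fads1 (0.67, SE 0.08) were higher too. Abcg1 was lower (-0.95, SE 0.16), and Fdps was lower (-1.05, SE 0.31) but not called without EPSC library 4 (-0.90) or mESC library 1 (-0.94). Feeder fibroblast markers summed to 2022 to 2119 CPM in mESCs and 579.9 to 586 in EPSCs, and their part was not tested.

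After long culture in totipotency medium, partly other members were called than after 2 days. In P25 cells 7 members rose and 3 fell, against 17.3% and 10.5% of all genes, so the number called was near the share of all genes. Fads2, the first desaturase of polyunsaturated fatty acid synthesis, had 272 and 265 CPM at P25 and 104 and 104 in EPSCs (1.37, SE 0.11, adjusted p = 1.4e-12). Dhcr7 had 155 and 155 CPM at P25 and 70.7 and 75.0 in EPSCs (1.09, SE 0.10), and Cyp51 had 181 and 178 at P25 and 94.3 and 97.5 in EPSCs (0.91, SE 0.08). None of these pairs overlapped. The rises of Pmvk (0.64, SE 0.21), Hsd17b7 (0.63, SE 0.16), Msmo1 (0.59, SE 0.16) and Stard4 (0.61, SE 0.12) were close to the limit. Pmvk, Hsd17b7 and Msmo1 were not called without P25 library 1 (0.64, 0.57 and 0.54), Pmvk not without P25 library 2 (0.62) or EPSC library 4 (0.55), and Msmo1 and Stard4 not without EPSC library 3 (0.56 and 0.50). Lpin1 had 32.6 and 29.7 CPM at P25 against 70.6 and 73.6 in EPSCs and fell (-1.21, SE 0.13), whereas Fasn (-0.24), Acly (-0.26), Scd1 (0.07) and Srebf1 (-0.21), all lower in 2-day S1 cells, were not called. That difference between 25 passages and 2 days was not tested. Trophectoderm markers summed to 806 to 851 CPM at P25 and 18.1 to 19.4 in EPSCs, and feeder fibroblast markers to 1156 to 1165 at P25 and 579.9 to 586 in EPSCs, and the part of both was not tested. Between P38 and P25 only Elovl6 was called, with 411 and 364 CPM at P38 and 253 and 258 at P25 (0.60, SE 0.10, adjusted p = 1.7e-04), against 0.14% of all genes higher and 1.06% lower, and the call was lost without P38 library 1 (0.51).

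Along the aggregate stages 9 members were called at S2 against P25, 7 at S3 against S2 and 22 at S5 against S3. Stage S4, between S3 and S5, was not analysed. At S2 5 members rose and 4 fell against P25, where 9.95% and 14.5% of all genes did, so the number called was near the share of all genes. Elovl6 had 548 and 554 CPM at S2 and 253 and 258 at P25 (1.11, SE 0.10, adjusted p = 9.5e-12), and Ebp had 68.3 and 60.4 at S2 and 32.0 and 35.2 at P25 (0.94, SE 0.16). Fads2 had 116 and 107 CPM at S2 and 272 and 265 at P25 (-1.26, SE 0.11). The elongase and the isomerase were thus higher and the desaturase lower at S2, with no overlap. Scd1 (-0.97, SE 0.10), Scd2 (-0.77, SE 0.10) and Pmvk (-1.16, SE 0.21) fell, and Lpin1 rose (0.71, SE 0.12). Feeder fibroblast markers summed to 179 to 180.5 CPM at S2 and 1156 to 1165 at P25, and trophectoderm markers to 249 to 266 at S2 and 806 to 851 at P25, and the part of both was not tested. The labels do not say how many passages the S1 cells behind the aggregates had.

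At S3 against S2 no member rose and 7 fell, against 3.84% and 5.96% of all genes. Of the 33 members 31 had a log2 fold change below 0, called or not, and the share of all genes below 0 was not taken. Dhcr7 had 51.4 and 42.6 CPM at S3 and 109 and 107 at S2 (-1.20, SE 0.10, adjusted p = 1.1e-10), and Nsdhl had 26.9 and 24.1 at S3 and 56.8 and 54.0 at S2 (-1.12, SE 0.10). For both enzymes the S3 libraries lay far below the S2 libraries. The fatty acid genes Fads2 (-0.84, SE 0.11), Scd1 (-0.77, SE 0.10), Acaca (-0.64, SE 0.14) and Fads1 (-0.60, SE 0.08) fell, the last not called without S3 library 2 (-0.55). Extraembryonic endoderm markers summed to 469 to 480.3 CPM at S3 and 233 to 243 at S2. Trophectoderm markers summed to 405 to 434 CPM at S3 and 249 to 266 at S2, and the part of both was not tested.

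Most members rose at S5. 20 members rose and 2 fell against S3, where 17.8% and 14.1% of all genes did, and the median of the members was 0.71, beside 0 for all genes. Of the 18 sterol enzymes 12 rose and none fell. Lss had 256 and 231 CPM at S5 and 62.1 and 69.0 at S3 (1.89, SE 0.10, adjusted p = 1.6e-18), Dhcr7 had 160.0 and 158 at S5 and 51.4 and 42.6 at S3 (1.76, SE 0.11), and Mvd had 92.9 and 81.8 at S5 and 33.4 and 26.8 at S3 (1.54, SE 0.12). In all 3 both S5 libraries lay far above both S3 libraries. Cyp51 had 309 and 317 CPM at S5 and 147 and 156 at S3 (1.05, SE 0.08). Nsdhl (1.12, SE 0.10), Pmvk (0.97, SE 0.21), Sqle (0.89, SE 0.09), Mvk (0.79, SE 0.13), Sc5d (0.77, SE 0.09), Acat2 (0.74, SE 0.08), the squalene synthase gene Fdft1 (0.67, SE 0.08) and Hsd17b7 (0.65, SE 0.15) completed the 12, and Hsd17b7 was not called without S5 library 1 (0.36). Insig1 had 323 and 295 CPM at S5 against 129 and 131 at S3 and rose (1.25, SE 0.09), and Srebf2, called in none of the other 25 comparisons, rose here (0.79, SE 0.14). Srebf1 (-0.10), Ebp (-0.10) and Tm7sf2 (-0.08) were not called.

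Among the fatty acid genes at S5, Fads2 had 258 and 236 CPM against 63.7 and 60.7 at S3 (1.99, SE 0.11, adjusted p = 4.9e-17), and Scd1 had 464 and 423 at S5 against 136 and 130.2 at S3 (1.74, SE 0.10). The S5 and S3 libraries did not overlap in either. Fads1 (0.96, SE 0.08), Acaca (0.89, SE 0.14) and Acly (0.60, SE 0.08) rose, Acly not called without S5 library 1 (0.56) or S3 library 2 (0.57). Elovl6 had 294 and 241 CPM at S5 and 441 and 443 at S3 and fell (-0.72, SE 0.10), as Abca1 did. Extraembryonic endoderm markers, given above for S5 and S3, and pluripotency markers, at 561 to 656 CPM at S5 and 1302 to 1394 at S3, moved with these results, and their part was not tested.

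**Figure D5:**
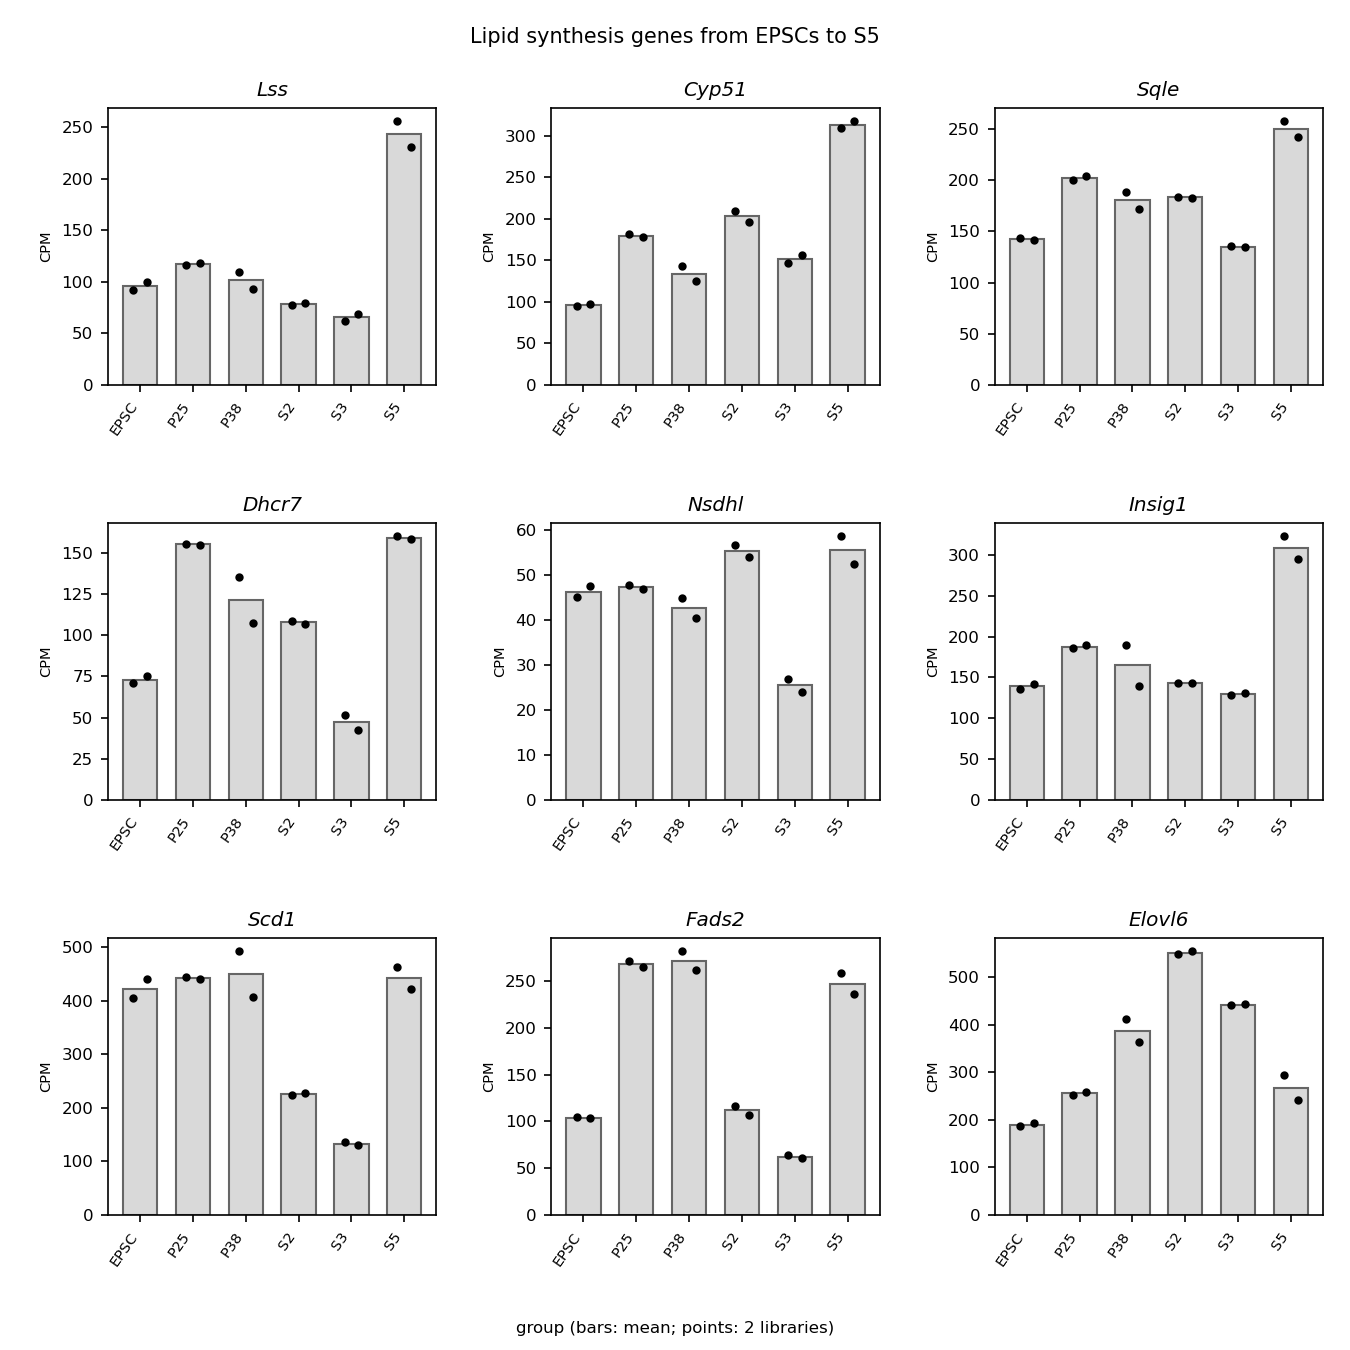
CPM of 9 members along EPSCs, P25, P38, S2, S3 and S5, with bars for group means and points for the 2 libraries. Lss, Dhcr7, Scd1 and Fads2 are lowest at S3 and high at S5, while Elovl6 is highest at S2 and lower at S5 than at S3.

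Leaving agents out of the S2 medium changed few members. Without 8Br-cAMP, Abca1 had 33.8 and 35.9 CPM against 85.7 and 95.4 in full S2 medium and fell (-1.38, SE 0.19, adjusted p = 2.2e-06), and Lpin1 fell (-0.68, SE 0.12). These were the 2 members that fell, and none rose, against 2.63% and 1.15% of all genes. Without Birabresib, Lpin1 had 80.7 and 79.2 CPM against 50.0 and 51.6 in full medium and rose (0.65, SE 0.12). It was the only member called, against 4.72% of all genes higher, and the number called changed without S2 library 1. Without CD1530, Abcg1 had 7.35 and 5.45 CPM against 15.0 and 13.6 in full medium and fell (-1.16, SE 0.17), again the only member, against 3.16% of all genes lower and 1.31% higher. Without CHIR 5 members fell and none rose, against 4.2% and 4.74% of all genes. Dhcr7 had 49.3 and 55.4 CPM without CHIR and 109 and 107 in full medium (-1.04, SE 0.10, adjusted p = 9.0e-10), Tm7sf2 had 26.7 and 25.4 without CHIR and 43.1 and 42.5 in full medium (-0.72, SE 0.12), and Lpin1 had 31.0 and 25.3 without CHIR and 50.0 and 51.6 in full medium (-0.85, SE 0.12). None of these pairs overlapped. Fads1 (-0.60, SE 0.08) and Ebp (-0.60, SE 0.15) fell too, both not called without library 1 of the group lacking CHIR (-0.56 and -0.57), and Ebp not without S2 library 1 (-0.52). Without that library of the group lacking CHIR, fewer members were called. These 4 comparisons share the S2 libraries.

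At S3 all groups that lacked an agent were first set together against full medium, and then each against the mean of the other 3 at the same stage. Each group is thus part of the reference of the others, so these last 4 contrasts are not separate evidence. A change in a single group moves the other contrasts the opposite way. The 4 groups together had 3 higher members and no lower one than full S3 medium, against 3.4% and 2.99% of all genes. These were Scd1 (0.78, SE 0.08, adjusted p = 1.3e-08), Fads2 (0.75, SE 0.09) and Nsdhl (0.64, SE 0.08), the last not called without S3 library 2 (0.57). Scd1 had 286 and 275 CPM without 8Br-cAMP, 142 and 153 without Birabresib, 258 and 264 without CHIR, 253 and 250.2 without CD1530 and 136 and 130.2 in full medium. All 8 libraries lacking an agent were above both S3 libraries, those without Birabresib by little. The number of members called also changed without S3 library 1.

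Against the other 3 groups, S3 without 8Br-cAMP had lower Abca1 (-1.22, SE 0.16, adjusted p = 1.8e-07) and Lpin1 (-0.69, SE 0.10) and higher Scd2 (0.82, SE 0.08), against 7.05% and 5.76% of all genes lower and higher. Abca1 had 36.9 and 36.3 CPM there, and 113 and 109.9 without Birabresib, 65.6 and 70.4 without CHIR and 82.0 and 80.8 without CD1530. Lower Abca1 and Lpin1 without 8Br-cAMP were thus called at S2 against full medium and at S3 against the other 3 groups, in separate libraries. These are unlike references, and S3 without 8Br-cAMP alone was not tested against full S3 medium. Without Birabresib 3 members were higher and 6 lower, against 14.6% and 2.65% of all genes. Abca1 (0.93, SE 0.14), Lpin1 (0.91, SE 0.09) and Abcg1 (0.68, SE 0.14) were higher. Scd1 (-0.84, SE 0.09), Scd2 (-0.72, SE 0.08), Sqle (-0.68, SE 0.07), Mvk (-0.61, SE 0.11), Pmvk (-0.61, SE 0.18) and Idi1 (-0.61, SE 0.13) were lower. Lower here means against the other 3 groups, not against full S3 medium. Scd1 had its lowest group mean of the second set in full S3 medium (133 CPM). Scd2, Mvk and Pmvk had theirs without Birabresib, and Sqle and Idi1 in mESCs. Of the 6 lower members, Mvk (-0.58), Pmvk (-0.47) and Idi1 (-0.56) were not called without library 2 of the group lacking Birabresib. Mvk was also not called without library 2 of the group lacking CHIR (-0.57) or library 1 of that lacking CD1530 (-0.57), nor Pmvk without library 2 of the group lacking 8Br-cAMP (-0.56) or CD1530 (-0.54). Without CHIR only Lpin1 was called, at 26.9 and 28.2 CPM (-0.94, SE 0.10), against 6.72% of all genes lower and 7.93% higher. Without CD1530 Abcg1, at 3.30 and 3.43 CPM, was lower (-1.28, SE 0.16) and Lpin1, at 63.5 and 66.8 CPM, higher (0.72, SE 0.09), against 8.76% and 2.86% of all genes. Endoderm markers summed to 1339 to 1349 CPM without CHIR and 469 to 480.3 in full medium, and their part was not tested.

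At S5 the sterol isomerase gene Ebp (chr X, 8185329 to 8193512) fell in each group that lacked an agent. It had 27.1 and 25.1 CPM without Activin A, 35.6 and 36.8 without BMP4, 17.3 and 20.9 without FGF4, 43.4 and 30.7 without XAV 939 and 49.0 and 65.1 in full medium. All 8 libraries lacking an agent lay below both S5 libraries, which differ among themselves. The change was -1.58, SE 0.16, adjusted p = 8.6e-10 without FGF4 and -1.13, SE 0.15, adjusted p = 3.6e-06 without Activin A. It was -0.66, SE 0.15, adjusted p = 0.036 without BMP4 and -0.62, SE 0.15, adjusted p = 0.0055 without XAV 939. The calls for BMP4 (-0.44) and XAV 939 (-0.40) were lost without S5 library 2. That for BMP4 was also lost without library 1 (-0.63) or 2 (-0.68) of its own group, and that for XAV 939 without library 2 of its own group (-0.39). The 4 comparisons share the S5 libraries, so they are not separate evidence. Ebp was the only member called without Activin A, BMP4 or XAV 939, where 1.37%, 0.188% and 2.74% of all genes fell and 0.778%, 0.0319% and 2.03% rose. The number of members called for Activin A and for XAV 939 also changed when single libraries were left out.

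Without FGF4 3 further members fell, and none rose, against 4.96% and 4.19% of all genes. Abca1 had 4.22 and 4.71 CPM without FGF4 and 11.8 and 7.46 at S5 (-1.10, SE 0.21, adjusted p = 1.9e-04). Insig1 had 174 and 187 CPM without FGF4 and 323 and 295 at S5 (-0.77, SE 0.09), and Scd1 had 267 and 282 without FGF4 and 464 and 423 at S5 (-0.69, SE 0.10). No pair overlapped. Endoderm markers summed to 4808 to 4838 CPM without Activin A, 2425 to 2468 without BMP4, 874 to 959.7 without FGF4, 1344 to 2097 without XAV 939 and 3103 to 4155 at S5, and their part in these results was not tested. The libraries without XAV 939 lay apart for fatty acid genes, with 574 and 1096 CPM of Fasn without XAV 939 against 1194 and 1132 at S5, and 122 and 243 CPM of Acaca without XAV 939 against 225 and 232 at S5. Neither gene was called.

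Another 28 genes belong to SREBP processing, sterol uptake and storage, the LXR response, isoprenoid branches and other SREBP-linked steps. Of these, 6 rose and 5 fell in 2-day S1 cells, against 23% and 15.8% of all genes. With CHIR 8 rose and 2 fell, against 15.9% and 12.4% of all genes. In treated mESCs 6 rose and 2 fell, against 18.5% and 13.2% of all genes. At P25 6 rose and 3 fell, against 17.3% and 10.5% of all genes, and at S5 against S3 6 rose and 3 fell, against 17.8% and 14.1% of all genes. With 28 genes, most of these counts are near the share of all genes, and the single genes below are given as values. Lipa, the lysosomal lipase that frees cholesterol from its esters, rose in 2-day S1 cells (2.47, SE 0.16, adjusted p = 4.3e-16), with CHIR (1.76, SE 0.16) and in treated mESCs (1.76, SE 0.15). Acss2, which makes acetyl-CoA from acetate, rose in 2-day S1 cells (2.44, SE 0.14), with CHIR (1.88, SE 0.15) and at P25 (1.43, SE 0.13), and its response was lower in mESCs than in EPSCs (-2.36, SE 0.19, adjusted p = 7.3e-13). Vldlr, a lipoprotein receptor, fell at S2 against P25 (-2.35, SE 0.17) and rose at S5 against S3 (2.11, SE 0.16). Rdh11 (1.81, SE 0.12) and Tmem97 (1.41, SE 0.12) rose at S5, and Scap, the escort of SREBPs, fell there (-1.46, SE 0.13).

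Across the 20 group means of the second set, most enzymes varied together, as a description of groups that share libraries' set and scaling. Pearson's r between the log2 level of a gene and the mean of the other sterol enzymes was 0.92 for Acat2, 0.91 for Lss, 0.85 for Sqle and 0.84 for Mvd. It was 0.82 for Fads2, 0.82 for Acaca, 0.80 for Insig1 and 0.72 for Srebf2. Among the other fatty acid genes r ran down to 0.26 for Scd2 and -0.48 for Elovl6. Ebp (-0.24) and Tm7sf2 (-0.46) were the enzymes of the chain with a negative r, and Srebf1 (-0.06) and Lpin1 (-0.03) were near 0. Abca1 had -0.85, and Abcg1 had -0.29.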

How the data were processed

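The deposited table holds raw read counts per gene, which the authors made with Trimmomatic 0.39, STAR 2.7.10b and featureCounts 2.0.6 on build mm10, per the submitters' processing notes. RNA was extracted with RNeasy, captured with oligo-dT and sequenced as read pairs on a HiSeq 2500, per the labels' protocols. No source used here gives the annotation, the strand setting or the handling of read pairs in counting. Among counts of 1 to 10, 66.85% to 80.52% were even in 46 libraries and 40.7% to 41.97% in the other 6, which is the ground for the statement on mates.

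From these counts edgeR 4.0.16 (R 4.3.3, limma 3.58.1) gave TMM-scaled CPM and quasi-likelihood tests in one model with a mean for each group and a separate EPSC mean in each set, after filterByExpr, with p-values adjusted over all 25056 genes in each of 26 comparisons. The SE is the log2 fold change divided by the root of F. Calls were recomputed with DESeq2 1.42.0, with RLE scaling, with every gene that had a count, with the libraries of the own family alone, with a replicate block and without each library in turn. The last 2 kept the dispersion trend of the reported fit. The scripts were tested on simulated data. Lists of members, other pathway genes and markers were chosen with earlier results of these data known. All members could be named. Other pathway genes were named only where called, at most 3 per list and comparison by smallest adjusted p. Gene positions and exons come from an mm10 gene annotation, and promoters from RefSeq.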

Additional observations from a re-analysis of the deposited data

Results flagged for a closer look

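The change after 2 days in totipotency medium differed between mESCs and EPSCs in 18 members, by edgeR's test of the difference itself, given here as the mESC log2 fold change minus the EPSC log2 fold change. Among the mevalonate and sterol enzymes it was 2.00 for Lss, 1.16 for Nsdhl, 0.95 for Idi1, 0.95 for Ebp, 0.81 for Sqle, 0.78 for Dhcr7 and 0.77 for Acat2. Fdps, measured from few counts, differed by 1.41 and was not called different without EPSC library 1 (1.09). Among the regulators and transport genes it was 0.99 for Insig1, 0.81 for Stard4 and 0.76 for Srebf1. Among the fatty acid genes it was 2.24 for Fasn, 1.88 for Scd2, 1.62 for Scd1, 1.34 for Acly, 1.33 for Acaca and 0.65 for Fads2, the last not called with DESeq2 or RLE size factors. Abca1, which fell in both, differed by 2.11, since its fall was larger in EPSCs. Cell type, cell line and set cannot be told apart here.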

How the results depend on the processing

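Of 180 calls of a member in a comparison, 142 held under every alternative run, 38 were lost under at least 1 and 0 were reversed. For Elvitegravir on top of CHIR, edgeR called 0 members, DESeq2 called 3, the fit without the filter 2 and the replicate block 3, and the cause was not tested. Leaving out 1 library at a time gave 0 to 10 calls there, 8 to 11 for PD0325901 (7 with all libraries), 0 to 1 for P38 against P25, 1 to 2 for S2 without Birabresib, 3 to 6 for S2 without CHIR, 1 to 2 for S5 without Activin A, 0 to 1 for S5 without BMP4, 0 to 3 for S5 without XAV 939 and 2 to 5 for all S3 omissions against S3. The share of all genes called in these comparisons also changed with the library left out. The ranges are therefore not a feature of the members alone. Replicate numbers are shared labels only, since same-numbered libraries did not deviate together in most comparisons (r of -0.107 to 0.0886). The exceptions were PD0325901 with CHIR (r of 0.779) and CD1530 with CHIR (r of 0.166). With the replicate block 1 of 160 calls was lost. Crossed pairing of CHIR and EPSC libraries, added after the data were seen, gave 12 rises and 7 falls of members, with 28.5% of all genes called. No paired analysis was possible because the numbers are not shared for mESCs against EPSCs and for P25 against EPSCs. Depth limits Fdps, with under 6 CPM in every group mean of the second set, and the exporters after CHIR.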
